A study of Mus musculus with 16 samples.

Results

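A set of genes that encode splicing proteins of the SR, hnRNP and TDP-43 families was followed through long-read RNA sequencing of mouse brain, picked by a list of gene symbols. They are 36 of the 21627 genes that received at least 1 read, and together they held 41518 gene reads. They fall into 5 groups by protein family, namely 13 SR and Tra2 proteins, 8 hnRNP proteins of the A/B, C, D and AB types, 4 of the F/H type, 8 of the K, L, M, R and U types, and the trio of Tardbp, which encodes TDP-43, Ewsr1 and Taf15. A gene read here is a full-length PacBio read assigned to a known isoform of the gene, to a part of one (an incomplete splice match, ISM), or to a new isoform made of known splice sites in a new combination (NIC) or with a new splice site (NNC). Levels are counts per 1000000 gene reads of a sample after TMM scaling (CPM) unless another unit is named. The scaling of these levels used all genes and samples, whereas that of each test used the genes and samples kept for it. A log2 difference therefore need not match the ratio of the levels.

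The libraries came from 16 samples of male mice, 4 for each of NT cortex, R6/2 cortex, NT striatum and R6/2 striatum. R6/2 mice (B6CBA-Tg(HDexon1)62Gpb/3J) carry exon 1 of the human huntingtin gene with an expanded CAG repeat, which models Huntington's disease by a fragment of the protein in addition to both mouse alleles, and NT mice lack the transgene. The labels give no age for these samples, and the study describes its R6/2 mice as 3 months old. Nothing in the labels says that each sample was a separate mouse, so the p-values measure the spread between these samples, which may be in part technical. The paper drew its long reads from a subset of its short-read samples, 4 males per condition, and dissected both regions from the left hemisphere. Cortex and striatum samples may therefore share mice. The main fits over all 16 samples treated them as independent.

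SR proteins bind exons through RNA recognition motifs and recruit the spliceosome with a domain rich in arginine and serine, whereas hnRNP proteins coat nascent transcripts and often repress splice sites. TDP-43 binds UG-rich RNA, represses cryptic exons in neurons, and is lost from the nucleus in several neurodegenerative diseases. Many of these genes control their own level through splicing, because the protein promotes a noncoding form of its own transcript, by a poison exon with an early stop codon or a retained intron, that is degraded or kept in the nucleus.

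Read totals were between 252885 and 1496196 per sample, and 4 striatal samples, 2 of each genotype, had 2 count sets that were summed. These 4 held longer isoforms. The mean length of the isoform to which a read was assigned was 2141 to 2225 nt against 1618 to 1885 nt in the other 4 striatal samples. The length of the reads themselves was not measured. The number of count sets was therefore a term in each fit with striatal samples. The 9 markers of striatal projection neurons summed to 9737 to 14460 CPM in NT striatum against 327 to 456 in NT cortex, and all 9 were called higher in striatum. In R6/2 they summed to 2075 to 3288 in striatum and to 90.9 to 131 in cortex, with 7 of 9 called lower in striatum. None of the 9 stood at 0 in any of the 4 groups, and the part of this shift in the values below was not tested. In such bulk samples fewer cells of a type and less RNA per cell cannot be told apart.

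The splicing protein genes were rich in forms other than the annotated coding mRNA. Of the reads of all genes 76.6% matched a known isoform in full, against 57.1% for the 36 genes, which had more incomplete matches (24.7% against 15.9%) and more new combinations of known splice sites (14.6% against 4.45%). Hnrnpk by itself gave 2231 reads of such new combinations. Among reads of known isoforms of protein-coding genes 2.62% fell on an isoform annotated as noncoding, meaning a retained intron, nonsense-mediated decay (NMD) or another noncoding biotype, and in the 36 genes the share was 8.23%. At least 10% noncoding reads were seen in 12 of the 31 members with 50 or more known reads (38.7%) and in 946 of 7235 such genes in all (13.1%), with medians of 3.82% and 0%. These shares describe poly(A) reads and say nothing of protein.

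Noncoding reads outnumbered coding reads in 7 members. For Hnrnpm, a splicing repressor, all 270 known reads lay on retained-intron isoforms, although 69.4% of its complete reads were of new isoforms, and for Srsf11, an SR-like protein of nuclear speckles, 325 of 373 did (87.1%), out of 1238 gene reads. The share was 77.2% for Hnrnpl (78 of 101 reads), 61.6% for Tra2a, a sequence-specific splicing activator (287 reads), 58.0% for Srsf9 and 100% for Taf15 (34 reads). Tardbp had 50 NMD and 39 retained-intron reads beside 48 coding reads (65.0% noncoding). Low shares were seen in Srsf3, Hnrnpa2b1, Srsf6, Srsf2, Hnrnpu and Hnrnpk (3.82%, 2.83%, 2.51%, 2.30%, 1.10% and 0.691%). In all, 9 members had fewer than 200 gene reads over the 16 samples, so their shares rest on little depth.

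**Figure D1:**
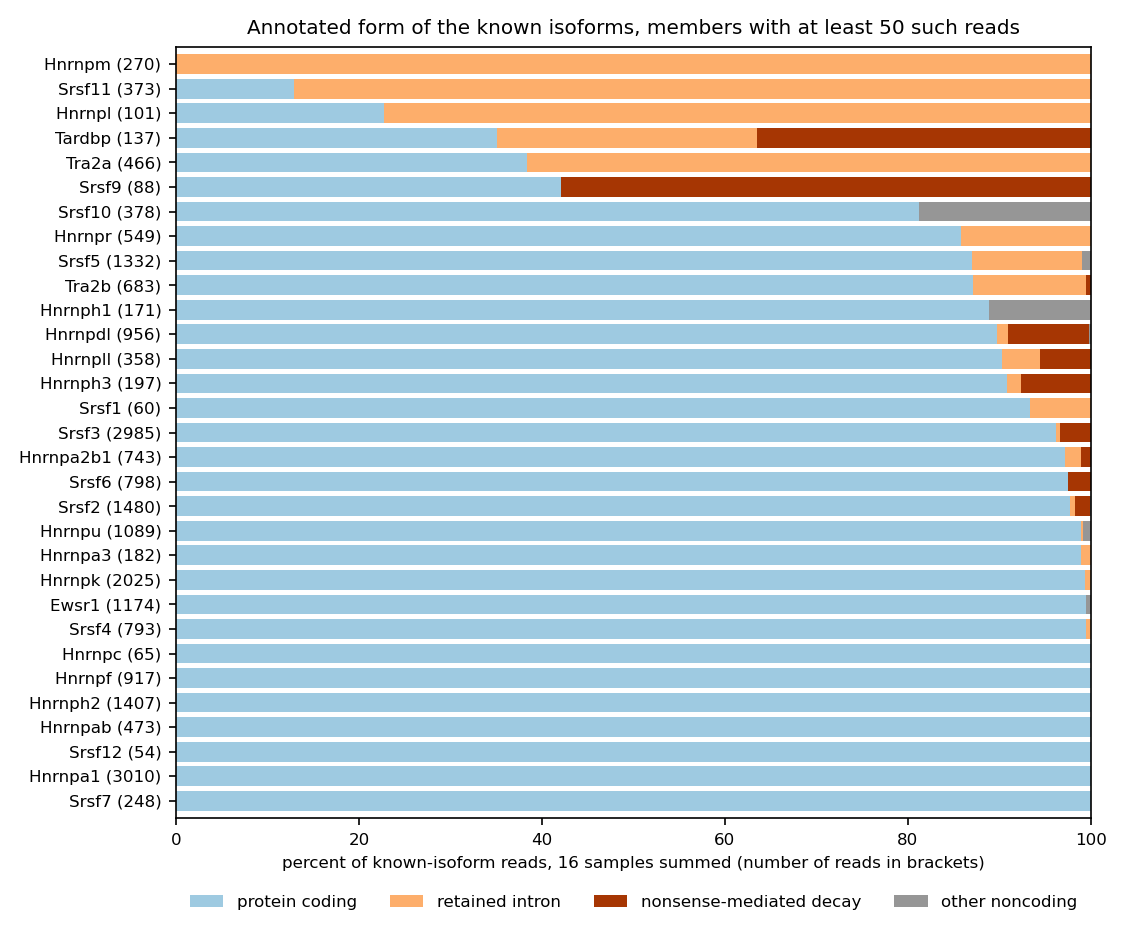
Percent of known-isoform reads by annotated form (x axis) for the 31 members with at least 50 such reads, 16 samples summed, with the read number in brackets. The longest noncoding bars are those of Hnrnpm, Srsf11, Hnrnpl, Tardbp, Tra2a and Srsf9, and coding forms fill most of the bar in the other members.

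New isoforms made up at least 50% of the complete reads of 5 of the 31 members with 50 or more complete reads (16.1%), against 1037 of 8680 genes in all (11.9%), with medians of 12.5% and 9.62%. These were Hnrnpc (92.2%), Hnrnpm (69.4%), Srsf7 (63.5%), Srsf12 (58.5%) and Hnrnpk (53.9%). In Hnrnpk, a poly(C)-binding protein, a pair of NIC isoforms held 21.4% and 18.0% of complete reads beside 40.8% for the known Hnrnpk-002. At the other end a single known isoform held 97.1% of the complete reads of Srsf6, 93.4% of Srsf3, 90.9% of Hnrnpu and 90.5% of Srsf2. Incomplete matches were most of the reads of Hnrnpul2 (93.5%), Hnrnpd (87.9%), Srsf11 (62.4%), Hnrnpu (61.3%), Hnrnpr (58.2%), Hnrnpa2b1 (57.0%) and Hnrnpul1 (51.5%). In Hnrnpul2 and Tardbp a further 237 and 145 reads were of the genomic class, and whether these were spliced was not checked. They were 83.8% and 36.4% of the reads of those genes when added, and were not counted as gene reads.

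A poison exon can be read directly in the 3 members in which at least 10 reads of known isoforms included an exon found only in noncoding isoforms. The exons are printed below from the GENCODE M21 transcripts (mm10), 5′ to 3′ on the strand of the gene, with the stop codon that they bring into the reading frame in capitals, since that codon is what makes the form noncoding.
Srsf3 extra exon, chr17:29039454-29039487, plus strand, first part of a longer exon: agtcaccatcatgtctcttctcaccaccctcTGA
Srsf9 extra exon, chr5:115328347-115328428, plus strand: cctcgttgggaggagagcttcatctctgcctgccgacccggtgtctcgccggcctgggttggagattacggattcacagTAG
Hnrnpll extra exon, chr17:80044976-80045022, minus strand: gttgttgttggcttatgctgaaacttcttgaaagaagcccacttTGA

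The Srsf3 exon is 456 nt long, the Srsf9 exon 358 nt and the Hnrnpll exon 83 nt, and each is shown up to its stop codon. Srsf3, the smallest SR protein, included its exon in 100 reads and skipped it in 2871 (3.37%). The share was 3.66% in NT cortex (18 of the reads including it), 4.35% in R6/2 cortex (34), 2.85% in NT striatum (21) and 2.81% in R6/2 striatum (27). Hnrnpll included its exon in 20 reads against 323 that skipped it (5.83%), with 3, 3, 8 and 6 including reads in the same order of groups.

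Srsf9 had the highest inclusion, 51 reads against 37 (58.0%). In NT striatum the exon was included in 6, 17, 4 and 1 reads of replicates 1 to 4 and skipped in 3, 7, 1 and 0 (71.8% of the group's reads), whereas R6/2 striatum had 0, 6, 1 and 1 including and 4, 0, 5 and 3 skipping reads (40.0%). The R6/2 samples thus ranged from no including read to no skipping read, which overlaps the NT samples, and the difference did not pass (adjusted p = 0.996). In cortex 8 reads included and 4 skipped it in NT, and 7 included and 10 skipped it in R6/2. Of 20 such exons in 12 members, 5 had any including read of a known isoform. The other two were in Tra2b, with 4 reads against 589 that skipped it (0.674%), and in Srsf11, with 1 read. No read of a known isoform included any of the exons in Srsf4 (0 of 789, which allows up to 0.380%), a further one in Tra2b (0 of 589, up to 0.509%), or those in Srsf10 (0 of 307, up to 0.977%), Srsf7 (0 of 248, up to 1.21%) and Tra2a (0 of 180, up to 1.67%). These limits cover counting error in reads of known isoforms only. Incomplete matches and new isoforms were not checked for these exons, among them 364 NIC and 68 NNC reads of Srsf7.

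No difference in inclusion between groups was called for a member. In R6/2 against NT cortex 0 of 2 members' exons passed, where 3.45% of the 29 exons tested in all genes did, and 0 of 3 passed in striatum (0% of 51) and between regions (0% of 70). None of the members' exons reached an unadjusted p under 0.05 in any of these comparisons. Over all exons tested 3 did in cortex, 0 in striatum and 2 between regions.

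The first comparison asked whether the transcripts of these genes stood at another level in R6/2 than in NT brain. No member passed the test on gene reads in either region, while most members lay on the higher side in R6/2. In cortex 3.22% of the 6121 genes tested were called, 0.457% higher and 2.76% lower, and 0 of 27 members (8 at an unadjusted p under 0.05, 7 higher and 1 lower). In striatum 4.34% of 7658 genes were called, 0.496% higher and 3.84% lower, and 0 of 31 members (8 unadjusted, 6 higher and 2 lower). Over all genes an unadjusted p under 0.05 was reached by 1057 of the 6121 in cortex, 421 higher and 636 lower. In striatum it was reached by 1353 of the 7658, 457 higher and 896 lower. DESeq2 also called no member in either region. The log2 difference was above 0 for 22 of 27 members in cortex and 25 of 31 in striatum, where 52.0% and 49.8% of all genes tested lay above 0. The medians were 0.29 against 0.02 for all genes in cortex, and 0.20 against 0.00 in striatum. As measured beside the cortical differences, all 6 astrocyte and all 6 oligodendrocyte markers had log2 differences below 0 in cortex (medians −0.59 and −0.41), and none was called. The 3 cortical excitatory and 3 striatal projection neuron markers tested were also below 0 (medians −0.54 and −2.12). Of these Nrn1, Penk and Ppp1r1b were called lower. Above 0 were 2 of 4 microglial markers and the 1 vascular and 1 choroid plexus marker tested. The astrocyte markers summed to 756 to 1117 CPM in NT cortex and 597 to 691 in R6/2 cortex, with no overlap, and their part in the values was not tested. Too few reads to be tested were found for 9 members in cortex (Srsf1, Srsf9, Srsf12, Hnrnpa0, Hnrnpd, Hnrnpl, Hnrnpul1, Hnrnpul2 and Taf15) and 5 in striatum (Hnrnpa0, Hnrnpl, Hnrnpul1, Hnrnpul2 and Taf15). The direction was less firm for single genes, since 7 of the 27 changed sign under at least 1 alternative in cortex and 11 of the 31 in striatum.

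**Figure D2:**
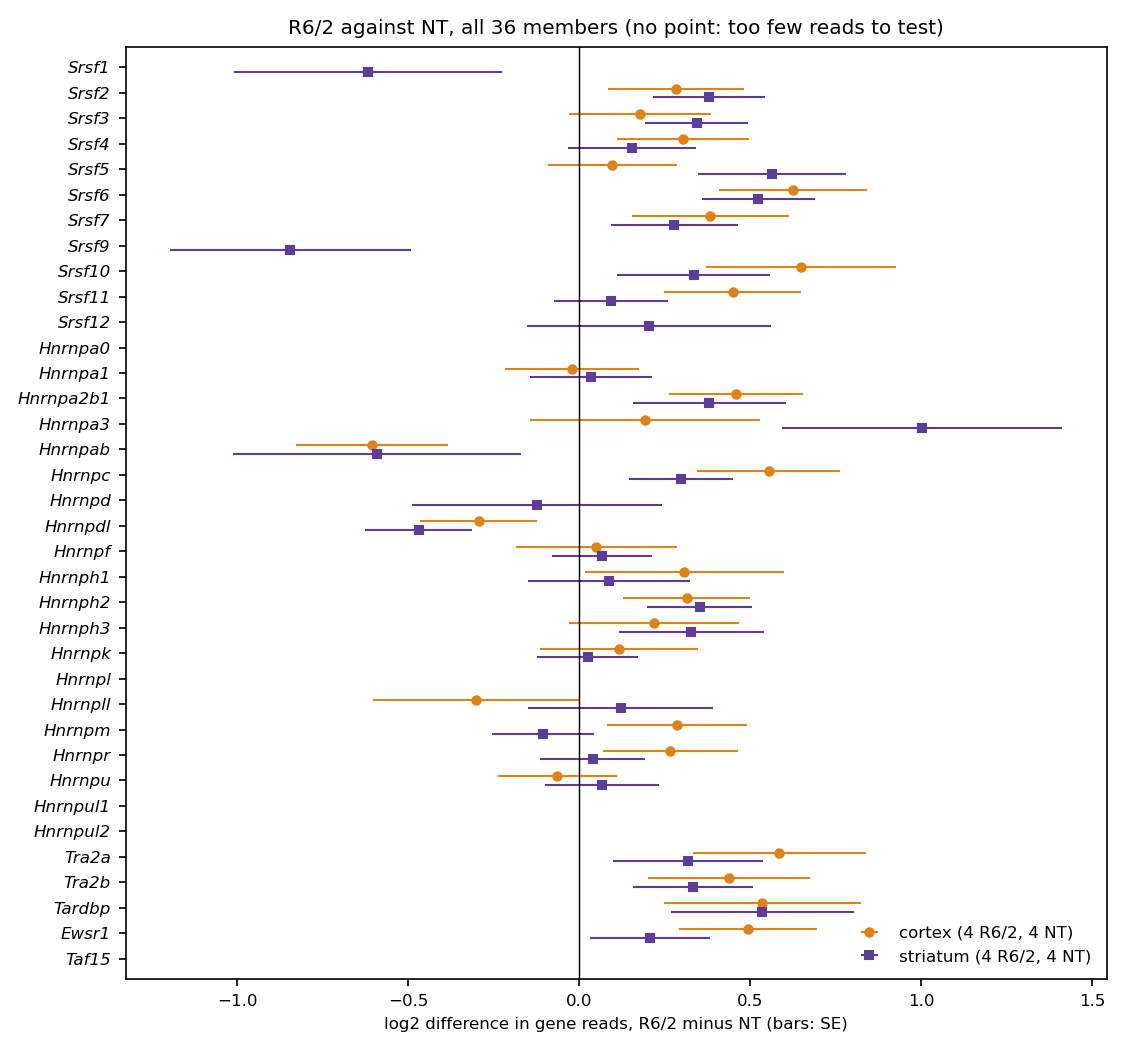
Log2 difference in gene reads between R6/2 and NT (x axis, bars SE) for the 36 members in cortex (circles) and striatum (squares), 4 samples per group. Most points lie right of 0, 22 of 27 in cortex and 25 of 31 in striatum, and none passed an adjusted p of 0.05.

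The SR and Tra2 proteins were apart between genotypes when their reads were summed. Their 13 genes held 0.0994% to 0.149% of gene reads in the NT cortex samples (0.133% ± 0.0234, SD, n = 4) and 0.161% to 0.170% in the R6/2 cortex samples (0.164% ± 0.00374). In striatum they held 0.0800% to 0.129% in NT (0.109% ± 0.0206) and 0.134% to 0.169% in R6/2 (0.153% ± 0.0178). The NT and R6/2 samples did not overlap in either region. The hnRNP A/B, C, D and AB genes held 0.0923% to 0.119% in NT cortex, 0.104% to 0.115% in R6/2 cortex, 0.0745% to 0.0986% in NT striatum and 0.0997% to 0.105% in R6/2 striatum, apart in striatum alone. The summed shares of the other 3 families overlapped between genotypes in both regions. No test was run on these sums, and as shares of reads they depend on all other genes. How many of all genes, or of other sums of genes, lie apart in this way was not counted. Here and below, groups without overlap are therefore described and not taken as a difference by themselves.

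Srsf6, an SR protein first known as SRp55, was the SR gene with the smallest adjusted p in both regions, and it was picked for description after its values were seen. It lies on chromosome 2 from 162931528 to 162937121, plus strand. Its level was 50.1, 81.95, 38.2 and 57.1 CPM in NT cortex (replicates 1 to 4), 92.6, 90.9, 94.9 and 97.1 in R6/2 cortex, 79.8, 81.96, 78.8 and 46.5 in NT striatum and 126, 112, 107 and 93.04 in R6/2 striatum. Every R6/2 sample lay above every NT sample of its region. The log2 difference was 0.63 ± 0.22 (SE) in cortex (adjusted p = 0.131) and 0.52 ± 0.17 in striatum (adjusted p = 0.106), and neither passed.

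Srsf3 had the most reads of the SR genes (chromosome 17, 29032628 to 29043373, plus strand). It stood at 193, 393, 365 and 324 in NT cortex, 383, 367, 376 and 364 in R6/2 cortex, 315, 267, 308 and 214 in NT striatum and 390.5, 344, 338 and 390.3 in R6/2 striatum. The striatal groups did not overlap, whereas NT cortex spread across the R6/2 cortex values. Its log2 difference was 0.18 ± 0.21 in cortex and 0.34 ± 0.15 in striatum (adjusted p = 0.72 and 0.252). Of the splicing activators related to fly transformer-2, Tra2a differed by 0.59 and 0.32 in cortex and striatum and Tra2b by 0.44 and 0.33. Srsf10, which represses splicing when dephosphorylated, differed by 0.65 and 0.34, and Srsf5 by 0.10 and 0.56. The remaining SR genes tested in both regions were Srsf2 (0.28 and 0.38), Srsf4 (0.30 and 0.15), Srsf7 (0.38 and 0.28) and Srsf11 (0.45 and 0.09), and Srsf12 was tested in striatum alone (0.20). All these are log2 differences above 0 that did not pass. Srsf4 ran from 73.6 to 80.7 CPM in NT cortex and 87.1 to 121 in R6/2 cortex, and Srsf11 from 59.5 to 103 and 106 to 156, so both were apart in cortex. In striatum the genotypes overlapped for both. Srsf5 ran from 128 to 266 in NT striatum and 264 to 342 in R6/2 striatum, a narrow overlap. On the lower side were Srsf1, the classic SR protein SF2/ASF, and Srsf9, tested in striatum alone, at −0.62 and −0.84 (adjusted p = 0.464 and 0.228), on 177 and 162 reads in all samples.

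The 8 genes of the hnRNP A/B, C, D and AB types had no common direction. Hnrnpa1, an abundant exon-silencing protein and the most read of them (chromosome 15, 103240432 to 103246692, plus strand), stood at 253, 464, 336 and 361 in NT cortex, 334, 404, 378 and 327 in R6/2 cortex, 423, 261, 468 and 354 in NT striatum and 428, 404, 366 and 390.3 in R6/2 striatum. The groups overlapped in both regions, at log2 differences of −0.02 ± 0.20 and 0.03 ± 0.18. Hnrnpc, which binds uridine-rich tracts, differed by 0.55 and 0.30 (adjusted p = 0.174 and 0.336) with no overlap of the groups in either region (55.2 to 109 and 115 to 163 in cortex, 112 to 148 and 149.1 to 186 in striatum). Hnrnpa3 differed by 1.0 in striatum (0 to 30.4 in NT and 27.9 to 46.5 in R6/2, SE 0.41, adjusted p = 0.218) and by 0.19 in cortex. Hnrnpd, with 116 reads in all, was tested in striatum alone (−0.12), and Hnrnpa0, with 39, in neither region.

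Hnrnpa2b1, which binds RNA in the nucleus and in transport granules and lies on chromosome 6 from 51460932 to 51469894, minus strand, stood at 176, 214, 102 and 201 in NT cortex and 283, 230.1, 264 and 225 in R6/2 cortex. In striatum it stood at 158, 106, 240.1 and 284 in NT and 289.9, 185, 268 and 248 in R6/2. The cortical groups did not overlap and the striatal groups did. Its log2 difference was 0.46 ± 0.20 in cortex (adjusted p = 0.23) and 0.38 ± 0.22 in striatum (adjusted p = 0.423). With incomplete matches left out, which are 57.0% of its reads, the cortical difference was 0.06 (adjusted p = 0.944).

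Of the members tested in both regions, Hnrnpdl and Hnrnpab had log2 differences below 0 in both. Hnrnpdl, a relative of the AU-rich element binding protein hnRNP D, lies on chromosome 5 from 100033577 to 100039664, minus strand. It stood at 176, 210.1, 191 and 217 in NT cortex, 147, 157, 180.1 and 189.8 in R6/2 cortex, 228, 178, 242 and 228 in NT striatum and 160.3, 164, 162 and 160.2 in R6/2 striatum. All 4 R6/2 striatal samples lay close together below the 4 NT striatal samples, whereas the cortical groups overlapped. The log2 difference was −0.29 ± 0.17 in cortex (adjusted p = 0.399) and −0.47 ± 0.16 in striatum (adjusted p = 0.125), and with incomplete matches left out the striatal gene passed (log2 difference −0.68, adjusted p = 0.0443). That was 1 of 17 alternatives in striatum and the only one to pass. The adjusted p was highest with the first set of counts only (0.458), and the log2 difference ran from −0.68 to −0.32. Hnrnpab, a transport and splicing factor on chromosome 11 (51600100 to 51606847, minus strand), had log2 differences of −0.61 ± 0.22 and −0.59 ± 0.42 (adjusted p = 0.162 and 0.523), and its levels are given with the regions. The striatal difference of Hnrnpab rests on NT replicate 2, without which it was 0.31.

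The F/H proteins bind G-rich runs. Hnrnph2, the most read of the 4 and X-linked (chromosome X, 134601179 to 134607060, plus strand), stood at 113, 164, 178 and 171 in NT cortex, 176, 211, 201 and 216 in R6/2 cortex, 158, 140.4, 113 and 93.04 in NT striatum and 170.5, 194, 179 and 119 in R6/2 striatum. Both pairs of groups overlapped, at log2 differences of 0.32 ± 0.19 and 0.35 ± 0.15 (adjusted p = 0.403 and 0.244). Hnrnpf, Hnrnph1 and Hnrnph3 differed by 0.05, 0.31 and 0.22 in cortex and by 0.07, 0.09 and 0.33 in striatum.

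The K, L, M, R and U types held 5 genes that were tested in both regions, and none passed. Hnrnpk, with the most reads of all members (5310; chromosome 13, 58391142 to 58403343, minus strand), stood at 226, 532, 506 and 538 in NT cortex, 441, 472, 564 and 547 in R6/2 cortex, 679, 665, 464 and 339.6 in NT striatum and 496, 649, 658 and 429 in R6/2 striatum. One NT cortex sample was low and the groups overlapped, at log2 differences of 0.12 ± 0.23 and 0.03 ± 0.15. The other 4 of this type that were tested in both regions, Hnrnpll, Hnrnpm, Hnrnpr and Hnrnpu, had log2 differences of −0.30 to 0.29 in cortex and −0.11 to 0.12 in striatum. Hnrnpl, Hnrnpul1 and Hnrnpul2, with 168, 97 and 46 gene reads in all, had too few reads to be tested between genotypes. Hnrnpul1 stood at 5.01, 10.5, 0 and 5.52 in NT cortex, 18.1, 19.3, 6.98 and 6.62 in R6/2 cortex, 7.60, 8.11, 3.58 and 4.65 in NT striatum and 10.2, 10.3, 18.4 and 15.5 in R6/2 striatum. Its R6/2 samples lay above all NT samples in striatum and overlapped them in cortex.

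Tardbp and Ewsr1 lay higher in R6/2 without passing. Tardbp (chromosome 4, 148612382 to 148627019, minus strand) stood at 17.6, 27.3, 21.2 and 20.2 in NT cortex, 38.1, 32.9, 30.7 and 28.7 in R6/2 cortex, 13.9, 17.9, 34.04 and 18.6 in NT striatum and 35.8, 20.7, 32.7 and 38.8 in R6/2 striatum. The cortical groups did not overlap, and in striatum NT replicate 3 and R6/2 replicate 2 crossed over. Its log2 difference was 0.54 ± 0.29 in cortex and 0.54 ± 0.27 in striatum (adjusted p = 0.353 and 0.324), on 253 gene reads in the 16 samples. Over the alternatives the difference of Tardbp ran from 0.21 to 0.66 in cortex and from 0.24 to 0.74 in striatum. The cortical test was weakest with reads of the genomic class added (adjusted p = 0.713). Ewsr1, an RNA-binding protein of the same family as Taf15 (chromosome 11, 5069689 to 5099266, minus strand), stood at 110.3, 158, 140.2 and 225 in NT cortex, 218, 257, 253 and 205 in R6/2 cortex, 251, 225, 206 and 93.04 in NT striatum and 196, 262, 308 and 168 in R6/2 striatum. NT and R6/2 overlapped in both regions, at log2 differences of 0.49 ± 0.20 and 0.21 ± 0.18 (adjusted p = 0.215 and 0.61). Taf15 had 75 reads in all and was not tested. It ran from 2.51 to 8.41 in NT cortex and from 8.83 to 13.5 in R6/2 cortex, and the genotypes overlapped in striatum.

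**Figure D3:**
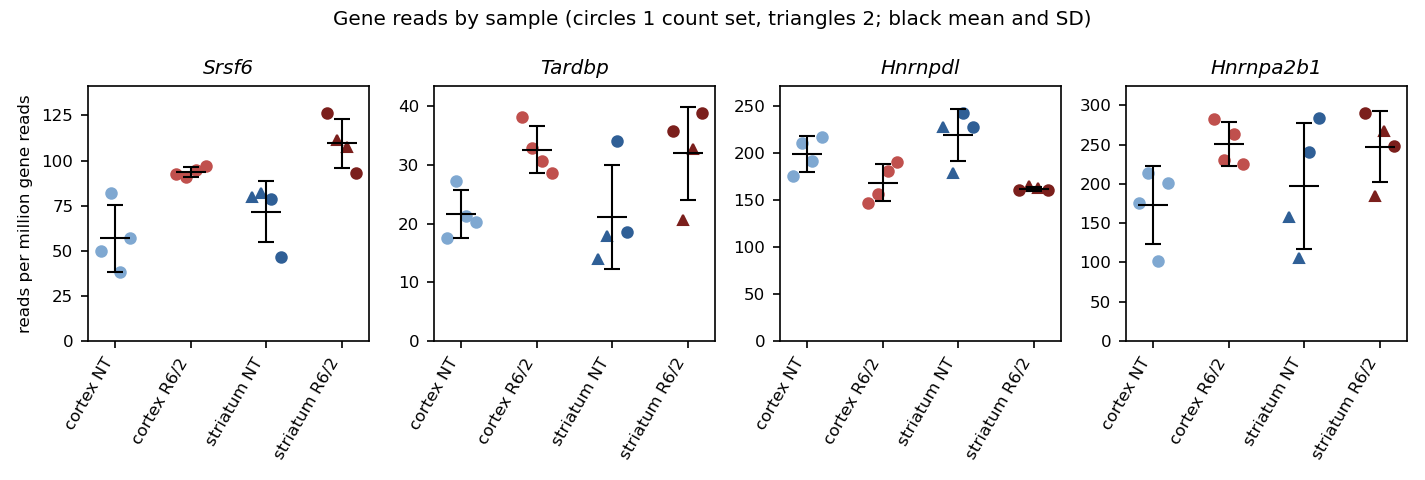
Gene level in CPM (y axis) of Srsf6, Tardbp, Hnrnpdl and Hnrnpa2b1 in each sample of the 4 groups, with circles for samples of 1 count set, triangles for 2, and the mean and SD in black. Srsf6 is higher in R6/2 than in every NT sample of its region, and the 4 R6/2 striatal samples of Hnrnpdl lie close together below NT.

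Tardbp reads were also split by annotated form. Noncoding Tardbp reads numbered 2, 2, 1 and 3 beside 2, 3, 1 and 1 coding reads in NT cortex, and 6, 12, 7 and 5 beside 3, 3, 6 and 1 in R6/2 cortex. In striatum they numbered 4, 6, 13 and 0 beside 3, 5, 3 and 1 in NT, and 5, 8, 8 and 7 beside 1, 2, 12 and 1 in R6/2. The share ran from 40.0% to 75.0% in NT cortex and from 53.8% to 83.3% in R6/2 cortex, so the groups overlapped, as they did in striatum. Each sample gave 1 to 20 such reads, and the difference did not pass in either region (adjusted p = 1 in both).

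No member differed between genotypes in the share of its known reads on noncoding isoforms. In cortex 0% of the 862 genes tested were called, with 0 of 11 members (none at an unadjusted p under 0.05), and in striatum 0.0703% of 1422 genes were called, with 0 of 19 members (1 unadjusted, Hnrnpdl). Of all genes tested 34 in cortex and 54 in striatum had an unadjusted p under 0.05. The noncoding share of Hnrnpdl in striatum was 5.43%, 5.19%, 9.23% and 12.5% in NT and 13.5%, 18.8%, 9.76% and 24.0% in R6/2, an overlap of 1 sample on each side (adjusted p = 1). For Srsf5 the noncoding share was 6.0%, 6.59%, 12.1% and 5.95% in NT cortex and 13.2%, 11%, 10.9% and 10.4% in R6/2 cortex. The Srsf5 groups overlapped through NT replicate 3.

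The mix of isoforms was then compared. In cortex 0.360% of 3058 genes were called and 0 of 25 members (2 at an unadjusted p under 0.05, Hnrnpdl and Srsf5). In striatum 0.451% of 4437 genes were called and 1 of 31 members, Hnrnpdl (adjusted p = 0.00217 by edgeR's splicing test, 3 members unadjusted). An unadjusted p under 0.05 was reached by 170 of the 3058 genes in cortex and 299 of the 4437 in striatum.

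The known isoforms Hnrnpdl-001, Hnrnpdl-003 and Hnrnpdl-004 part at the same exon end, position 100036104 on chromosome 5 (mm10, minus strand), near the end of the gene. They also differ in the outer ends of their first and last exons. A further known isoform, ENSMUST00000141337, is not printed. The 15 bases before and, in capitals, the 15 after position 100036104 are printed for the 3 named forms.
Hnrnpdl-001, last intron spliced: acgctgggagagcagGAGGTGTAAAGAAAC
Hnrnpdl-003, extra exon included: acgctgggagagcagCGGGAACTTCATTGC
Hnrnpdl-004, last intron retained: acgctgggagagcagGTGTGTGAGATGCAG

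Hnrnpdl-001 (ENSMUST00000128187) joins this end to the last exon, whose first base is at 100034984. Hnrnpdl-003 (ENSMUST00000086900), annotated as an NMD target, adds an exon from 100035635 to 100035739. Hnrnpdl-004 (ENSMUST00000153442), annotated as coding, keeps the intron within one exon from 100034721 to 100036195. The stop codon of Hnrnpdl-001 ends 21 bases before the last junction. A further isoform is an NIC of 7 exons and 3251 nt, whose exon positions are not given in the count tables, so it cannot be drawn here.

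Hnrnpdl-001 held 70, 78.5, 79.4 and 74.4 percent of complete Hnrnpdl reads in NT cortex and 50, 47.6, 61.97 and 63.6 percent in R6/2 cortex. In striatum it held 73.5, 75.5, 72.1 and 71.4 percent in NT (73.1% ± 1.79, SD, n = 4) and 57.5, 56.1, 56.9 and 51.6 percent in R6/2 (55.5% ± 2.66). Every R6/2 sample lay below every NT sample in both regions. The NIC of 7 exons held 1.47, 0.614, 1.47 and 3.57 percent in NT striatum (2, 1, 1 and 1 reads) and 12.8, 9.18, 12.8 and 12.9 percent in R6/2 striatum (6, 9, 13 and 4 reads), again without overlap. In NT cortex it was seen in replicate 4 alone (2 of 78 reads), and the 0 in the other NT cortex samples allows up to 10.0%, 4.62% and 8.82%. R6/2 cortex held 13.9, 21.4, 9.86 and 0 percent (5, 9, 7 and 0 reads), and the 0 of replicate 4 allows up to 6.82%.

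The NIC carried the result in striatum, with a log2 change in usage of 3.12 (adjusted p = 0.00103 over all isoforms), while Hnrnpdl-001 by itself did not pass (−0.34, adjusted p = 1). In cortex the log2 change in usage of the NIC was 3.36 (adjusted p = 0.0571), and the gene did not pass (adjusted p = 0.103) unless R6/2 replicate 4 was left out (adjusted p = 0.0281). Hnrnpdl-003 and Hnrnpdl-004 overlapped between genotypes in both regions. Hnrnpdl-003 held 4.91% to 10.7% in NT striatum and 4.26% to 15.3% in R6/2 striatum, and Hnrnpdl-004 3.57% to 16.2% and 9.68% to 15.7%. ENSMUST00000141337 held 0% to 1.47% in NT and 6.38% to 9.68% in R6/2 striatal samples of 1 count set (1 and 6 reads). In striatal samples of 2 count sets it had 0 reads in both genotypes. In cortex it held 0% to 3.33% in NT and 0% to 2.82% in R6/2. The striatal pattern was present within samples of 1 count set (Hnrnpdl-001 at 71.4% to 72.1% in NT and 51.6% to 57.4% in R6/2) and of 2 (73.5% to 75.5% and 56.1% to 56.9%). The call was nonetheless lost when known isoforms alone were tested (adjusted p = 1.0), with incomplete matches added (0.0568), without the term for count sets (0.0705), and without R6/2 replicate 3 (0.0653).

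**Figure D4:**
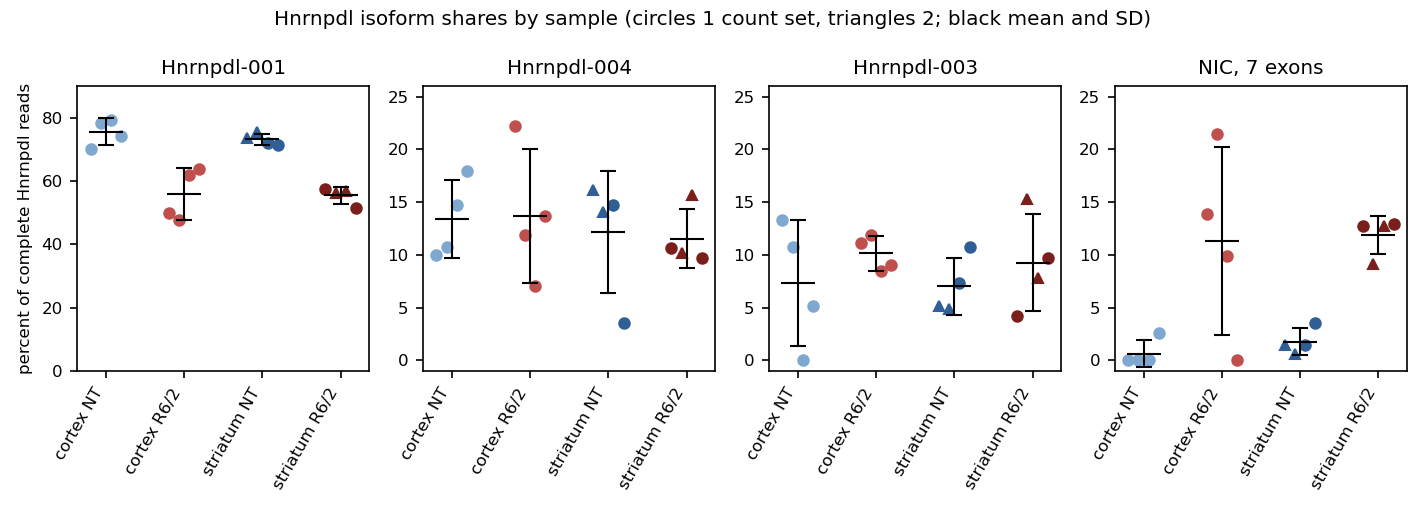
Percent of complete Hnrnpdl reads (y axis; the first panel has its own scale) on Hnrnpdl-001, Hnrnpdl-004, Hnrnpdl-003 and the NIC of 7 exons in each sample, with circles for 1 count set, triangles for 2, and the mean and SD in black. Hnrnpdl-001 is lower in R6/2 in both regions, and the NIC has means of 0.641% ± 1.28 in NT and 11.3% ± 8.93 in R6/2 cortex and of 1.78% ± 1.26 in NT and 11.9% ± 1.81 in R6/2 striatum.

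Srsf5 was the other member at an unadjusted p under 0.05 in the cortical test of isoform mix (chromosome 12, 80945504 to 80950507, plus strand). Its isoform Srsf5-004 (ENSMUST00000110356) held 21.4, 27.1, 20 and 21.97 percent of complete reads in NT cortex and 9.23, 10.9, 12.99 and 9.65 percent in R6/2 cortex. All R6/2 cortex samples lay below all NT cortex samples, yet neither the gene (adjusted p = 0.455) nor the isoform (adjusted p = 0.145) passed. In striatum the shares overlapped, at 13.1, 21.97, 15.8 and 9.68 percent in NT and 7.53, 11.7, 7.0 and 9.64 percent in R6/2. An NIC of 7 exons and 2746 nt held 5.36% to 16.4% in NT cortex, 15.5% to 20.2% in R6/2 cortex, 9.68% to 23.3% in NT striatum and 21.9% to 31.3% in R6/2 striatum, with overlap in both regions.

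The second comparison set striatum against cortex over both genotypes. No cortical sample had 2 count sets, so with the count-set term the estimated difference is in effect that of striatal samples with 1 count set from cortex. These striatal samples had a mean assigned isoform length of 1618 to 1885 nt, against 1851 to 2100 nt in cortex, and the part of this in the differences was not tested. Regions differed in many genes, 42.2% of the 7390 tested (19.3% higher and 22.9% lower in striatum). Of the 30 members tested 7 passed (23.3%), 1 higher (Hnrnpm) and 6 lower (Hnrnpu, Hnrnpab, Hnrnph2, Hnrnpr, Srsf7 and Srsf2), a smaller share than over all genes. The median log2 difference was −0.29 for the members and −0.11 for all genes. The median of all genes depended on the setting, at −0.00 with DESeq2 and 0.03 with no filter on low counts, and the share of called genes that were higher in striatum moved from 45.7% to 55.7% and 67.4%. With no filter 7 members were called, 4 of them higher (of Hnrnpa0, Hnrnpab, Hnrnpd, Hnrnpm, Hnrnpu, Hnrnpul2 and Srsf11). Without NT cortex replicate 1 or R6/2 cortex replicate 2 the median of all genes was 0.11 in both cases, that of the members −0.07 and −0.08, and 64.3% and 65.9% of called genes were higher. Hnrnpm and the 6 lower members named first kept their direction under each alternative. As measured beside these, all 6 oligodendrocyte markers were called higher in striatum, with sums of 12170 to 31280 in NT striatum against 3072 to 6776 in NT cortex, and the part of such cells in the values was not tested.

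Hnrnpu, a scaffold-attachment protein that binds chromatin and RNA (chromosome 1, 178321108 to 178337797, minus strand), had a level of 401, 389, 357 and 379 in NT cortex, 385, 369, 368 and 391 in R6/2 cortex, 247, 294, 244 and 200 in NT striatum and 258, 332, 318 and 168 in R6/2 striatum. It was the one member of the 7 in which no striatal sample reached the lowest cortical sample. The log2 difference was −1.0 ± 0.15 (adjusted p = 1.1e-05). Its mean level was 380 CPM in cortex, 217 in striatal samples of 1 count set and 298 in those of 2. Incomplete matches were 63.6% to 90.6% of its reads in cortex and 37.3% to 79.1% in striatum, and with these left out the difference was −0.52 (adjusted p = 0.111).

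Hnrnpab stood at 123, 126, 89.2 and 95.7 in NT cortex, 102, 77.3, 65.6 and 50.8 in R6/2 cortex, 37.99, 132, 23.3 and 27.9 in NT striatum and 44.3, 36.1, 37.8 and 41.4 in R6/2 striatum. One NT striatal sample, replicate 2, was higher than any cortical sample and the other striatal samples were lower than all of them. Its log2 difference was −1.53 ± 0.34 (adjusted p = 0.000839), and it passed in all 25 alternatives. Hnrnpm (chromosome 17, 33646233 to 33686860, minus strand) ran the other way, with 67.7, 118, 84.97 and 69.95 in NT cortex, 111, 108, 100.5 and 110.4 in R6/2 cortex, 115, 136, 156 and 163 in NT striatum and 169, 106, 125 and 149.9 in R6/2 striatum. Its log2 difference was 0.54 ± 0.15 (adjusted p = 0.00644), which also passed in all 25. Striatal samples of 1 count set (149.9 to 169) lay above those of 2 (106 to 136), and the latter overlapped the cortex.

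Hnrnph2, whose levels are given above, had a log2 difference of −0.72 ± 0.16 (adjusted p = 0.000772). Its regions overlapped at 113 to 216 in cortex and 93.0 to 194 in striatum. The call was lost with no filter on low counts (adjusted p = 0.0523) and without the term for count sets (0.0629).

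Hnrnpr (chromosome 4, 136310942 to 136359447, plus strand) is a relative of hnRNP Q. It stood at 90.2, 137, 166 and 158 in NT cortex, 189, 145, 169 and 179 in R6/2 cortex, 124, 157, 134 and 88.4 in NT striatum and 129.6, 139, 158 and 111 in R6/2 striatum. Its regions overlapped, with a log2 difference of −0.57 ± 0.17 (adjusted p = 0.00751). Incomplete matches were 64.1% to 78.5% of its reads in cortex and 34.2% to 68.4% in striatum, and with these left out the difference was −0.14 (adjusted p = 0.636). The call was also lost with no filter (0.223), without the count-set term (0.103) and without R6/2 cortex replicate 2 (0.0724).

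Srsf7 and Srsf2, an SR protein with a zinc knuckle and the one also called SC35, closed the list. Srsf7 (chromosome 17, 80200080 to 80207307, minus strand) stood at 45.1, 81.95, 97.7 and 60.8 in NT cortex, 98.03, 104, 89.3 and 81.7 in R6/2 cortex, 84.8, 64.9, 60.9 and 37.2 in NT striatum and 64.8, 84.7, 90.9 and 74.95 in R6/2 striatum, and its log2 difference was −0.62 ± 0.20 (adjusted p = 0.0156). Srsf2 (chromosome 11, 116849901 to 116853094, minus strand) stood at 110.3, 212, 195 and 147 in NT cortex, 205, 215, 225 and 185 in R6/2 cortex, 153, 163, 161 and 97.7 in NT striatum and 193, 236, 218 and 132 in R6/2 striatum, and its log2 difference was −0.53 ± 0.17 (adjusted p = 0.0160). The regions overlapped in both genes. Both calls were lost with no filter (adjusted p = 0.248 for Srsf7 and 0.314 for Srsf2), without the count-set term (log2 differences −0.31 and −0.27, adjusted p = 0.225 and 0.257) and without R6/2 cortex replicate 2 (0.158 and 0.187). The mean of Srsf7 was 82.4 CPM in cortex, 59.5 in striatal samples of 1 count set and 81.3 in those of 2, and that of Srsf2 was 187, 146 and 193. That of Srsf7 was also lost without NT striatum replicate 3 (0.0523) or R6/2 striatum replicate 1 (0.0657), and that of Srsf2 without R6/2 striatum replicate 4 (0.0977).

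**Figure D5:**
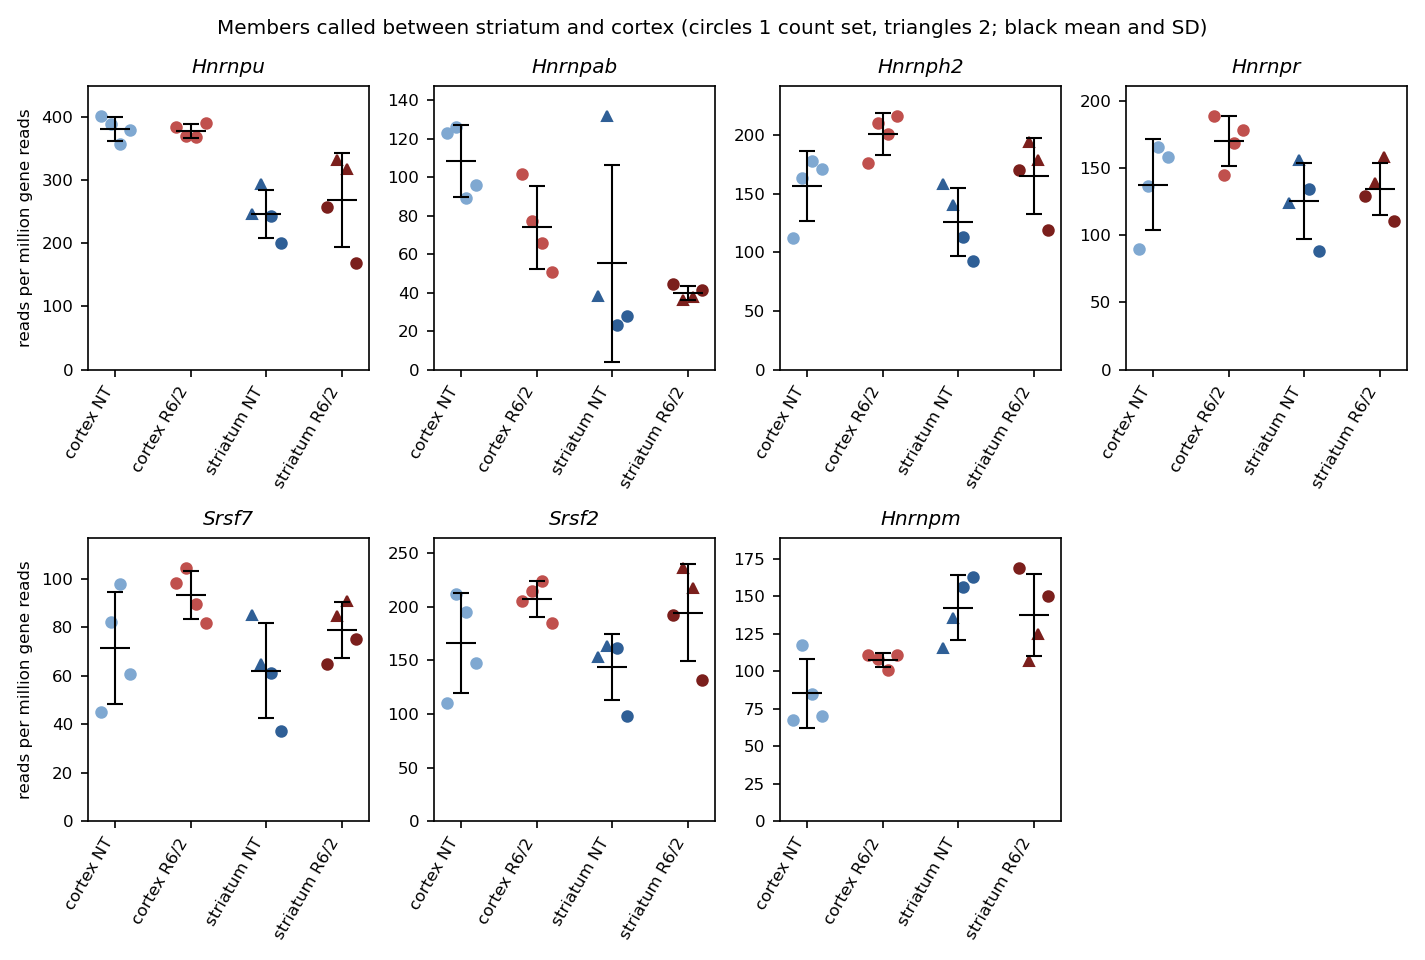
Gene level in CPM (y axis) of the 7 members called between striatum and cortex, in each sample of the 4 groups, with circles for samples of 1 count set, triangles for 2, and the mean and SD in black. Hnrnpu is lower in all 8 striatal samples than in any cortical sample, Hnrnpm lies higher in most striatal samples, and the other 5 overlap.

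No member differed between regions in isoform mix (0 of 32, 4 at an unadjusted p under 0.05, against 1.44% of 5641 genes called) or in noncoding share (0 of 19, 2 unadjusted, Srsf5 and Srsf11, against 1.82% of 1922 genes). Of all genes tested 499 in isoform mix and 183 in noncoding share had an unadjusted p under 0.05. With incomplete matches added as isoforms, Hnrnpab and Hnrnpu passed in isoform mix. Srsf11 had noncoding shares of 100%, 87.5%, 100% and 100% in NT cortex and 83.3%, 87.1%, 86.4% and 100% in NT striatum, with overlap.

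Whether the R6/2 difference was larger in one region was tested by the interaction of region and genotype. Of 7390 genes 0.0406% were called, 0.0271% upward and 0.0135% downward, and 0 of 30 members, with none at an unadjusted p under 0.05 and none by DESeq2. Over all genes 429 had an unadjusted p under 0.05. The genotype differences of the members were therefore not shown to depend on region.

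Other genes of the same machinery were read beside the members. In cortex 1 of the 13 SR-related speckle proteins tested was called, Acin1, which is part of the exon junction machinery (log2 difference 0.81 ± 0.22, adjusted p = 0.0496), and none was called among 7 SR protein kinases and import factors, 9 hnRNP relatives and 9 factors of nonsense-mediated decay. In striatum none of the 7, 12, 10 and 12 genes tested in the lists of kinases, speckle proteins, relatives and decay factors was called. The median log2 differences of these 4 lists were 0.22, 0.28, 0.03 and 0.09 in cortex and 0.20, 0.06, 0.12 and −0.04 in striatum. Between regions 2 of 7 kinases and import factors, 5 of 13 speckle proteins, 3 of 9 relatives and 4 of 10 decay factors were called, 6 higher and 8 lower in striatum (Prpf4b, Tnpo3, Acin1, Son, Srrm2, Srrm4, Thrap3, Cirbp, Pcbp2, Pcbp4, Rbm8a, Smg1, Upf2 and Upf3b), with list medians of 0.07, −0.10, −0.09 and 0.29.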

How the data were processed

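Long-read libraries of NT and R6/2 cortex and striatum were made from TRIzol RNA treated with Terminator exonuclease and sequenced on the PacBio Iso-seq platform. The authors ran ccs, lima, isoseq3, minimap2 (2.17-r941, mm10), TranscriptClean and TALON, and deposited unfiltered counts of reads per isoform, not normalized, without molecular identifiers. Here counts of known, ISM, NIC and NNC isoforms were summed per gene, and both count sets of a sample were added. Genes kept by edgeR's filterByExpr were tested with the edgeR (4.0.16, R 4.3.3) quasi-likelihood test after TMM scaling, with Benjamini-Hochberg adjustment over all genes tested and a threshold of 0.05. Cortex had genotype as its term, and striatum genotype and the number of count sets. Region and interaction were fitted over all 16 samples with a term per group and count sets. As no cortical sample had 2 count sets, the estimated region difference sets cortex against striatal samples of 1 count set. Isoform mix, noncoding share and noncoding exon inclusion were tested with edgeR's diffSpliceDGE on forms of at least 10 reads, with Simes p per gene. Noncoding share and exon inclusion used reads of known isoforms only. The SE of a log2 difference is its size over the square root of F. Isoform biotypes and sequences came from GENCODE M21 transcripts, which matched 99.6% of known isoforms (37568 of 37726).

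Depth ran from 252885 to 581942 reads in NT cortex, 486596 to 808814 in R6/2 cortex, 317050 to 1496196 in NT striatum and 526937 to 1052536 in R6/2 striatum, so a gene at 20 CPM rests on few reads per sample. PCR reads are not independent molecules. Levels per sample are given for members that passed any test, for Tardbp, Hnrnpdl and Hnrnpa2b1, and for the most read member of each family. Srsf6 and Hnrnpul1, both without overlap of the genotypes in striatum, were added outside this rule. The members, lists and tests were chosen with earlier results of these data known, the striatal isoform result of Hnrnpdl among them, so nothing here is independent support for it. The tests were tried on simulated counts. The alternatives were other scalings, DESeq2 (1.42.0), filters, read classes, terms and leaving out each sample.

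Marker lists were also read. Between regions 4 of 4 tested cortical excitatory neuron markers and 3 of 6 astrocyte markers were called lower in striatum, 1 of 5 microglial markers higher, 1 of 2 vascular markers higher and 1 lower, and 0 of 1 for choroid plexus. Between genotypes the calls were Penk, Ppp1r1b and Nrn1 lower in R6/2 cortex and, beside the 7 striatal neuron markers, Mobp lower in R6/2 striatum, and no astrocyte, microglial, vascular or choroid plexus marker was called. Choroid plexus markers summed to up to 10460 CPM in NT striatum.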

Additional observations from a re-analysis of the deposited data

Results flagged for a closer look

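A sample stood far from the other 3 of its group in 8 of the 76 groups of 4 examined, by the gap to its nearest neighbour relative to the range of the group (Dixon's test), and chance gives about 1 in 20. That rate holds for independent, normally distributed values, which isoform shares on few reads are not. Among gene levels, in CPM, Hnrnpab was 131.5 in NT striatum replicate 2 against 23.3 to 38.0 in the other samples. Srsf2 and Srsf6 were low in NT striatum replicate 4, at 97.7 against 153 to 163 and at 46.5 against 78.8 to 82.0. Hnrnpk was 226 in NT cortex replicate 1 against 506 to 538. Among Hnrnpdl isoform shares, Hnrnpdl-004 was 3.57% in NT striatum replicate 4 (others 14.1% to 16.2%) and 15.7% in R6/2 striatum replicate 3 (others 9.68% to 10.6%). The NIC of 7 exons was 2.56% in NT cortex replicate 4 (others 0%) and 9.18% in R6/2 striatum replicate 2 (others 12.7% to 12.9%). The first of these rests on 2 of 78 reads, and with the others at 0 any read would have passed the limit. No cause was tested for any of these.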

How the results depend on the processing

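Across the alternatives, 0 members were called between genotypes in cortical gene reads, and in striatum 2 were called with no filter on low counts (Hnrnpa3 and Srsf5), 1 with ISM reads left out (Hnrnpdl) and 0 to 1 on leaving out each sample (Hnrnpa3, without NT replicate 1). Between regions 4 members were called without the term for count sets and 7 to 10 on leaving out each sample. The cortical isoform mix gave 0 to 1 called members on leaving out each sample. In striatum Hnrnpdl was not called with known isoforms only, with ISM isoforms added or without the count-set term (0 members, adjusted p = 1.0, 0.0568 and 0.0705), and leaving out each sample gave 0 to 1 members with an adjusted p from 0.00207 to 0.0653. Between regions 2 members were called in isoform mix with ISM isoforms added. The test of known isoforms only left out the NIC together with all other new isoforms, and the cause of none of these changes was tested. Same-numbered samples had correlations of −0.38 to 0.14 between striatal genotypes, −0.06 to 0.17 between cortical ones, −0.09 to 0.13 between NT regions and −0.03 to 0.26 between R6/2 regions. Not every pair passed 0.1, so numbers were not taken to pair samples, although 5 of 8 cortical samples were closest to their own number in striatum. A replicate block left 0, 0 and 7 members called in cortex, striatum and between regions, and Hnrnpdl at an adjusted p of 0.0180. Counts over all genes moved by more than 1.5 times from 197 to 95 in cortex (ISM left out), from 332 to 606 (no filter), 183 (first count set), 39 (no count-set term) and 185 (replicate block) in striatum, and for the interaction from 3 to 7 (DESeq2), 8 (no filter) and 1 (no count-set term). On leaving out each sample, counts ran from 94 (without R6/2 replicate 3) to 305 (without NT replicate 1) in cortex, from 141 (without R6/2 replicate 2) to 391 (without NT replicate 4) in striatum and from 2602 to 3241 between regions, and from 1 to 3 for the interaction. Isoform mix moved from 11 to 7 (known only) and 28 (F test) in cortex, from 20 to 7 (known only), 11 (ISM added), 74 (F test) and 3 (no term) in striatum, and from 81 to 427 (ISM added), 170 (F test) and 17 (block) between regions. The noncoding share between regions moved from 35 to 1 (NMD isoforms only), 8 (block) and 21 (no term). On leaving out each sample, isoform mix ran from 1 to 15 in cortex, 5 to 26 in striatum and 37 to 99 between regions, and the noncoding share from 15 to 40 between regions. Members with under 200 reads limit what noncoding shares can show.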
